A study of Mus musculus with 16 samples.

Results

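The Myc, Max and Mxd network was followed as 10 genes chosen by name: Myc, Mycn and Mycl of the Myc family, Max, Mxd1, Mxd3, Mxd4 and Mxi1 of the Mxd family, and Mnt and Mga. They are 10 of the 47937 genes counted, and all 10 are among the 11831 genes that passed the filter on low counts (a mean over 100 counts in at least 1 group). RNA was sequenced in bulk from MPP3 and MPP4, the myeloid-biased and lymphoid-biased multipotent progenitors of mouse bone marrow, in 16 libraries (4 groups of 4). Same-numbered MPP3 and MPP4 libraries of a genotype were taken to come from 1 mouse. This gives 8 C57BL/6 mice (the C57BL/6J substrain in the study's methods). Both populations were depleted of lineage-positive cells and sorted as LSK (lineage-negative, Sca1+, Kit+), CD150- and CD48+ cells, MPP4 with Flt3 as a further positive marker. Per the labels, the WT mice carried Ebf1fl/fl alleles with Tie2Cre+/+ (no Cre allele; 2 females aged 12 and 11 weeks, 2 males aged 12 and 11 weeks) and the KO mice Ebf1fl/fl with Tie2Cre +/cre (2 males aged 10 and 9 weeks, 2 females aged 11 weeks). The series' design text describes the controls differently, as Ebf1-wt mice with Tie2Cre, so whether the WT mice carried Cre is uncertain. Tie2Cre is active in endothelium as well as in blood stem cells, so that the floxed gene is also targeted outside the sorted cells.

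Max is a small basic helix-loop-helix leucine zipper protein that binds DNA with a partner. With Myc, Mycn or Mycl it binds E-box sequences and activates genes of ribosome production, nucleotide synthesis and growth. With Mxd1, Mxd3, Mxd4, Mxi1 or Mnt it binds the same sequences and recruits the Sin3 corepressor with its histone deacetylases, and Mga is a large Max partner that takes part in a Polycomb repressor complex. In blood formation, Myc and Mycn act together in stem cell survival and in the exit from the niche, and Mxd1 rises as granulocytes mature.

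Mycn, Mxd3 and Mnt are shown by sequence because their levels differed most between groups among the network genes with over 100 mean counts in every group. The windows are the 250 bases upstream of the RefSeq start on GRCm38.p6, written 5′ to 3′ on the gene's strand, and from the longer stretches of Mycn and Mnt the bases inside the GENCODE M21 gene model were left out. Capitals mark letters matching E2F-type sites (TTTCCCGC or TTTGGCGC, either strand) in Mycn at chr12:12941915-12942086, minus strand, and the E-box CACGTG in Mnt at chr11:74830674-74830919, plus strand. The 30-base stretches at chr12:12941877-12941906 (Mycn) and chr13:55329803-55329832 (Mxd3), both minus strand, carry the palindrome CCCNNGGG, the half-site pair of EBF proteins, in capitals. Both of these palindromes lie inside the gene models, which hold 78 of the window's bases in Mycn and 92 in Mxd3.
Mycn upstream: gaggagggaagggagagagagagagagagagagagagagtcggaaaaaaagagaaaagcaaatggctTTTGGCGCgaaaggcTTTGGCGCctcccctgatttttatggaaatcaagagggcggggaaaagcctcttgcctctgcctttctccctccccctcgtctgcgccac
Mycn motif: tctctccccgcCCCCCGGGtgtgtcagatt
Mxd3 motif: cggacggggttCCCATGGGcggggcgggga
Mnt upstream: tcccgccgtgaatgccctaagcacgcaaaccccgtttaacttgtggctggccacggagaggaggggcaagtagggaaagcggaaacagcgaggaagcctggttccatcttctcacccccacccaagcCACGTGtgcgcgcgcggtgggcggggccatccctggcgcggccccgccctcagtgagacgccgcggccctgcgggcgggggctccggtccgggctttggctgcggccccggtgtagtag
A window was found for 9 of the 10 network genes, 11 windows in all, with none for Myc. The E-box letters were in the windows of Mnt and Mxd4, against 6.02% of 32851 windows of all genes. CCCNNGGG was in windows of Mycn, Mxd3, Mxi1 and Mga, against 11.8%, and the E2F-type letters were in that of Mycn, against 1.3%. No binding was measured, and the motifs were chosen after the windows had been seen.

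The libraries held 24823708 to 48703193 counts. CPM are counts scaled to the library's total over the genes that passed the filter and normalised with TMM factors. On that scale, 3 counts corresponded to 0.0619 to 0.118 CPM. Flt3 lay at 205 to 313 CPM in the MPP3 libraries and at 938 to 1362 CPM in the MPP4 libraries, with no overlap, in the order that the sort sets. Ebf1, the targeted gene, had 5, 21, 91 and 82 counts in the WT libraries of MPP3 and 23, 6, 84 and 6 in its KO libraries. In MPP4 it had 187, 98, 199 and 263 counts in WT and 817, 928, 488 and 642 in KO. It was thus higher in all MPP4 libraries labelled KO than in those labelled WT, against the label, and counts over the whole gene cannot show whether the floxed exons were lost. KO and WT below mean the labels. Igkc, an antibody light chain, ranged from 67.6 to 381 CPM in MPP3 WT, 0 to 61.2 in MPP3 KO, 1.08 to 17.4 in MPP4 WT, and did not exceed 0.222 in MPP4 KO. Sdc1, a surface proteoglycan on the same list of plasma cell markers, had the opposite order, at 4.33 to 11.6 CPM in MPP3 WT and 5.33 to 13.3 in MPP3 KO against 64.2 to 142 in MPP4 WT and 50.1 to 114 in MPP4 KO. Over the 7 plasma cell markers, the summed level was 269 to 759.6 CPM in MPP3 WT, 179.9 to 404 in MPP3 KO, 209 to 377 in MPP4 WT and 188 to 384 in the KO libraries of MPP4. The 7 mature neutrophil markers summed to 9.6 to 76.6 CPM in MPP3 and 1.72 to 15.5 CPM in MPP4, and Retnlg was at or under 0.289 CPM throughout. The 6 erythroid markers summed to 7.69 to 69.6 CPM and the 6 mature B markers to 67.8 to 93 CPM, of which Cd79b gave at least 66.1, while Ms4a1 was at or under 0.614. Of the 5 T cell markers, Lck was at 34.2 to 52.4 CPM in MPP3 and 124 to 176 CPM in MPP4, and Cd3e was at or under 2.99. The part of these cells in the results below was not tested.

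Myc (ENSMUSG00000022346; chr15:61985391-61990374, plus strand, with gene positions here and below from GENCODE M21 on GRCm38), the founding member of its family, was by far the most abundant network transcript, and its level differed between the populations by less than the spread between mice. In WT mice, Myc stood at 1144, 1078, 872 and 1091 CPM in MPP3 and at 1069, 1162, 882 and 1014 CPM in MPP4. In KO mice it stood at 699.6, 1059.9, 1138 and 1312 CPM in MPP3 and at 768, 974, 1124 and 1226 CPM in MPP4. All 4 groups overlapped, with means of 1046 ± 119.9, 1052 ± 258, 1032 ± 117 and 1023 ± 199 CPM (SD, n = 4; MPP3 WT, MPP3 KO, MPP4 WT and MPP4 KO). The fitted log2 fold change of MPP3 over MPP4 was 0.02 ± 0.16 in WT (SE; 95% interval -0.33 to 0.37; adjusted p = 0.969) and 0.04 ± 0.16 in KO (-0.31 to 0.39; adjusted p = 0.923). With the mouse as a block, the SE fell to 0.05 in both, with fold changes of 0.02 and 0.03.

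**Figure D1:**
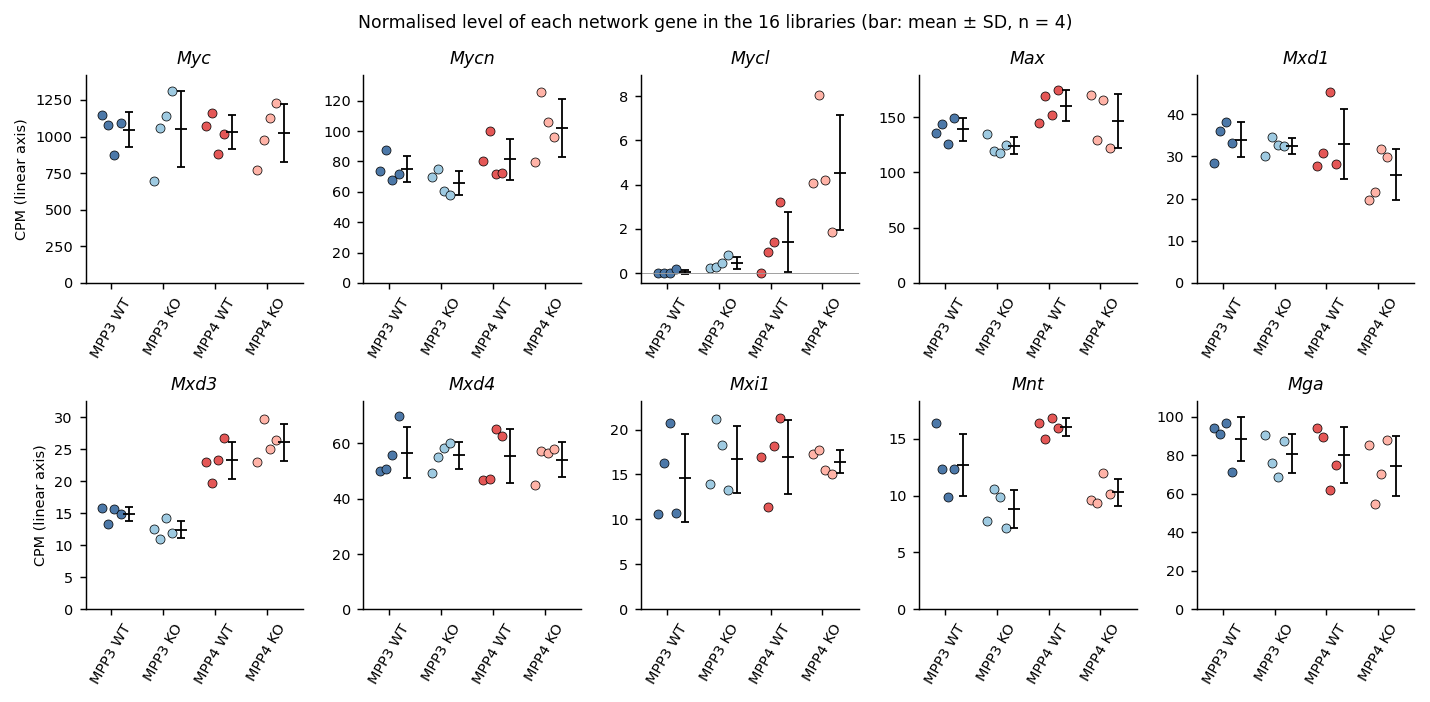
Level of the 10 network genes in CPM, the normalised count (vertical axis, linear, with a range of its own for each gene), 1 point per library in each of the 4 groups, with the mean and SD of 4 libraries as a bar. Mxd3 is higher in every MPP4 library (19.8 CPM or more) than in any MPP3 library (15.8 or less), the Myc groups overlap, and Mnt is lower in all MPP4 KO libraries than in all MPP4 WT libraries.

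The spread of Myc lay between mice rather than between populations. Mouse KO 1 was lowest and mouse KO 4 highest in both populations, and mouse WT 3 was the lowest WT mouse in both. The order went with sex in the KO mice, where both males (KO 1 and 2, also the younger) lay below both females in each population. In WT the males lay below the females in MPP4 (882 and 1014 against 1069 and 1162 CPM) but overlapped them in MPP3. The part of sex and age in this spread was not tested. Averaged over both populations, Myc ranged over 0.79 log2 units among the 8 mice, while MPP3 and MPP4 of the same mouse differed by at most 0.14. The ratio of those values was 5.85 for Myc, and 0.321% of the 11831 genes tested reached it. This comparison was chosen after the values of Myc had been seen, and the genes were not matched to Myc for level. Across genes tested the medians were a range of 0.49 and a largest difference of 0.5, with a median ratio of 0.983. Mxd4 had the next highest ratio in the network (2.15, reached by 7.76% of genes) and Mxd3 the lowest (0.208, reached by 99.6%).

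**Figure D2:**
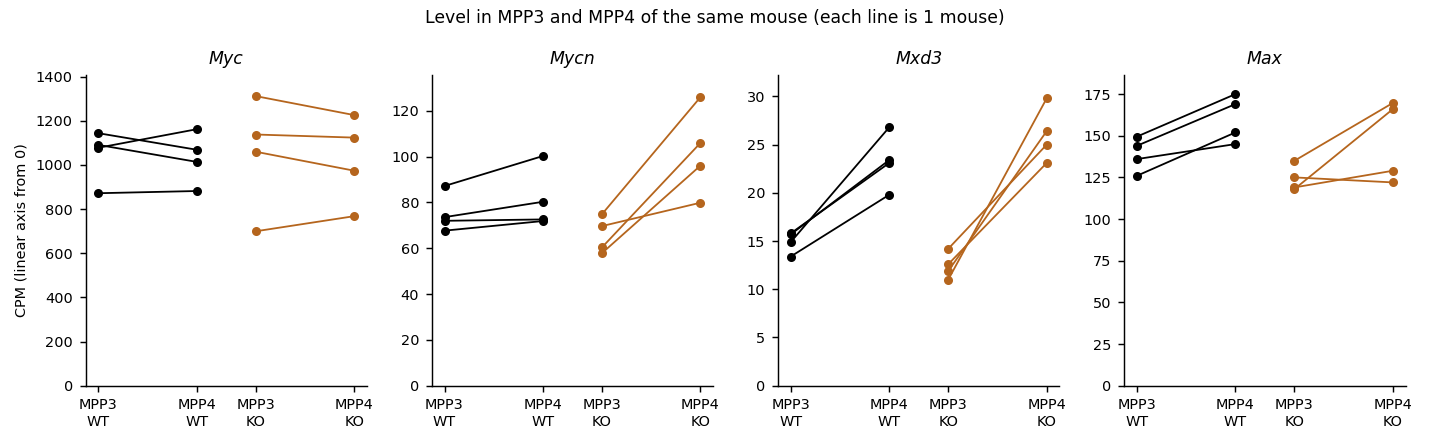
Level of Myc, Mycn, Mxd3 and Max in CPM (vertical axis, from 0) in MPP3 and MPP4, with each line joining the libraries of 1 mouse (black, WT; brown, KO). The Myc lines are nearly flat and lie apart by mouse (699.6 to 1312 CPM in MPP3), all 8 Mxd3 lines rise to MPP4, and the Mycn lines rise more steeply in 3 of the 4 KO mice than in any WT mouse.

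Mycn (chr12:12936093-12941914, minus strand), which can stand in for Myc in stem cells, was far less abundant and differed between populations in the KO mice. It stood at 69.7, 74.9, 60.4 and 57.9 CPM in MPP3 KO and at 79.9, 126, 106 and 96.1 CPM in MPP4 KO, without overlap. In WT it stood at 73.6, 87.2, 67.7 and 72 CPM in MPP3 and at 80.3, 100.3, 71.9 and 72.6 CPM in MPP4, where the groups overlapped although all 4 mice were slightly higher in MPP4. The log2 fold change of MPP3 over MPP4 was -0.64 ± 0.14 in KO (adjusted p = 0.0046), a level 1.55 times higher in MPP4, and -0.11 ± 0.14 in WT (95% interval -0.41 to 0.18; adjusted p = 0.72). The mouse by mouse log2 differences were -0.2, -0.75, -0.82 and -0.73 in KO and -0.13, -0.2, -0.09 and -0.01 in WT. The test of the difference between both effects did not pass (log2 -0.52 ± 0.2; adjusted p = 1), nor with the mouse as a block (adjusted p = 0.683).

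Mycl (chr4:122995652-123002485, plus strand), the third family member, was at or near the detection limit in MPP3 WT and low elsewhere. Its counts were 0, 0, 0 and 7 in MPP3 WT, 9, 8, 17 and 33 in MPP3 KO and 1, 28, 69 and 137 in MPP4 WT. In MPP4 KO they were 141, 301, 113 and 67. Every mouse had more in MPP4, the MPP3 KO and MPP4 KO libraries did not overlap, and the WT groups overlapped through WT mouse 1. Mean levels were 0.0443, 0.445, 1.4 and 4.54 CPM (MPP3 WT, MPP3 KO, MPP4 WT and MPP4 KO). The fitted log2 fold change of MPP3 over MPP4 was -4.75 ± 1.14 in WT (adjusted p = 0.0104) and -3.33 ± 0.91 in KO (adjusted p = 0.0205). Its size depends on the prior count of the fit, and without 1 library the WT value ran from -8.68 (without MPP3 WT mouse 4, the only library of its group with any count) to -3.94. The gene passed the filter only through MPP4 KO, its highest group, so that its call cannot be read as independent of the filter.

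Max (chr12:76937269-76962201, minus strand), the shared partner, was the network's next most abundant transcript per length after Myc. It stood at 136, 144, 126 and 149.5 CPM in MPP3 WT and 145, 169, 152 and 175 in MPP4 WT. In KO it stood at 135, 119, 118 and 125 CPM in MPP3 and 169.7, 129, 166 and 122 in MPP4. MPP4 was higher in all 4 WT mice and in 3 of the 4 KO mice, but the groups overlapped in both genotypes. The log2 fold change of MPP3 over MPP4 was -0.2 ± 0.1 in WT (adjusted p = 0.268) and -0.24 ± 0.1 in KO (adjusted p = 0.153), and did not pass the threshold of 0.1. With the mouse as a block it was lower in MPP3 in both (adjusted p = 0.0823 in WT and 0.048 in KO).

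Mxd3 (chr13:55325168-55329823, minus strand), an Mxd repressor found in cycling cells, showed the clearest difference of the network. It stood at 15.8, 13.4, 15.7 and 14.9 CPM in MPP3 WT against 23.1, 19.8, 23.4 and 26.8 in MPP4 WT. In KO mice it stood at 12.6, 11, 14.2 and 11.9 CPM in MPP3 against 23.1, 29.8, 25 and 26.4 in MPP4. No MPP3 library reached any MPP4 library. The level was 1.56 times higher in MPP4 in WT (log2 fold change of MPP3 over MPP4 -0.64 ± 0.12; adjusted p = 0.00204) and 2.09 times higher in KO (-1.07 ± 0.12; adjusted p = 1.46e-05). The KO effect exceeded the WT effect by a log2 value of -0.43 ± 0.17, which did not pass (adjusted p = 1). Mxd3 shares 105 exonic bases with Prelid1 on the opposite strand, and the strand setting of the counting is not given in the sources used here. Prelid1 itself was at 149 to 207 CPM and did not pass in either genotype (log2 fold change -0.04, adjusted p = 0.879 in WT; -0.08, adjusted p = 0.682 in KO).

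The other Mxd genes did not pass in any comparison of the fit. Mxd1 (chr6:86647042-86669161, minus strand), the repressor that accompanies terminal differentiation, stood at 28.5, 36, 38.2 and 33.2 CPM in MPP3 WT and at 27.8, 30.9, 45.3 and 28.1 in MPP4 WT. In KO it stood at 30.1, 34.6, 32.7 and 32.5 CPM in MPP3 and at 19.7, 21.5, 31.7 and 29.8 in MPP4, higher in MPP3 in all 4 mice although the groups overlapped. Its log2 fold change of MPP3 over MPP4 was 0.04 ± 0.17 in WT. In KO it was 0.34 ± 0.17 (adjusted p = 0.238), and 0.37 ± 0.13 with the mouse as a block (adjusted p = 0.0547). Mxd4 (chr5:34173883-34187720, minus strand), a further Mxd repressor, averaged 56.6, 55.7, 55.5 and 54.2 CPM in MPP3 WT, MPP3 KO, MPP4 WT and MPP4 KO, with single libraries at 44.9 to 69.9 CPM. Its log2 fold changes between populations were 0.03 in WT and 0.04 in KO, each ± 0.14. Mxi1 (chr19:53310518-53375810, plus strand), which shares the Sin3-binding domain of the family, averaged 14.5, 16.7, 16.9 and 16.4 CPM in that order, with single libraries at 10.6 to 21.3 CPM. Its coefficient of variation ran from 8.02% in MPP4 KO to 33.5% in MPP3 WT, and its log2 fold change between populations was -0.22 ± 0.23 in WT and 0.02 ± 0.23 in KO. Mxd1, Mxd4 and Mxi1 overlap other gene models, which in Mxd4 and Mxi1 lie on the opposite strand.

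Mnt (chr11:74830920-74845725, plus strand), the broadly expressed repressor that opposes Myc in resting and dividing cells, was lower in the KO libraries by value. In MPP4 it stood at 16.4, 15, 16.8 and 15.9 CPM in WT and at 9.63, 9.35, 12 and 10.1 CPM in KO, without overlap. In MPP3 it stood at 16.4, 12.3, 9.85 and 12.3 CPM in WT and at 7.75, 10.6, 9.9 and 7.12 CPM in KO, which overlapped. The log2 fold change of KO over WT was -0.64 ± 0.17 in MPP4 (95% interval -1 to -0.28; adjusted p = 0.179) and -0.52 ± 0.17 in MPP3 (adjusted p = 0.279), neither past the threshold. DESeq2 gave -0.63 in MPP4 with an adjusted p of 0.045, a call that the main test did not make. Between populations, the log2 fold change of MPP3 over MPP4 was -0.34 ± 0.17 in WT (adjusted p = 0.256) and -0.22 ± 0.17 in KO (adjusted p = 0.483). Mga (chr2:119897228-119969581, plus strand) averaged 88.4, 80.8, 80.2 and 74.6 CPM in MPP3 WT, MPP3 KO, MPP4 WT and MPP4 KO, with single libraries at 54.5 to 96.7 CPM. It had no call, and its log2 fold changes lay between -0.13 and 0.14 in the 4 comparisons.

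**Figure D3:**
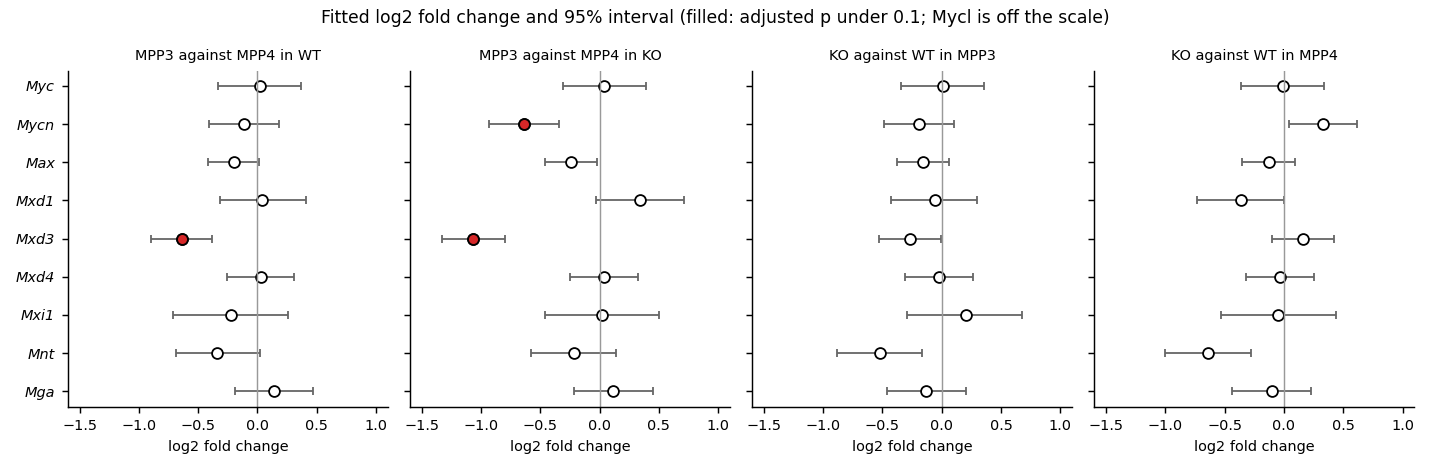
Fitted log2 fold change (horizontal axis) with its 95% interval for 9 network genes in the 4 comparisons, first-named group over second, with filled points for an adjusted p under 0.1. Mxd3 is filled in both population comparisons and Mycn in that of the KO mice, and no gene is filled between genotypes. Mycl (-4.75 and -3.33 between populations) lies outside the axis and is left out.

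Between populations, 2 of the 10 network genes passed in WT (Mycl and Mxd3) and 3 in KO (Mycl, Mycn and Mxd3), all lower in MPP3. Over all genes tested, 15.1% passed in WT and 17.9% in KO, and 8.33% and 9.18% passed as lower in MPP3. Since Mycl had passed the filter only through its highest group, the counts were also taken without it, and 1 of 9 genes (11.1%) passed in WT and 2 of 9 (22.2%) in KO, shares near the background. The groups did not overlap for 1 network gene in WT and 3 in KO (1 and 2 without Mycl), against 15.9% and 17.2% of genes tested. With the mouse as a block, 3 passed in WT (2 without Mycl) against a background of 24.8%, and 5 in KO (4 without Mycl) against 28.3%. The median log2 fold change of the 10 genes was -0.16 in WT and -0.1 in KO, beside 0 and -0.01 over all genes tested. Without Mycl the medians were -0.11 and 0.02.

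Between genotypes, none of the 10 passed in edgeR's quasi-likelihood test in either population, and few genes did at all (0.0676% of those tested in MPP3 and 0.0169% in MPP4). At an unadjusted p under 0.05, 3 network genes were counted in MPP3 (Mnt, Mxd3 and Mycl) and 2 in MPP4 (Mnt and Mycn), beside 10.5% and 12.8% of all genes tested. Without Mycl, which the filter kept through MPP4 KO alone, the count was 2 of 9 in each. DESeq2 made 0 calls in MPP3 (2 at an unadjusted p under 0.05) and 1 in MPP4 (3 at an unadjusted p under 0.05). Over all genes it called 1.82% in MPP3 and, of 10452 genes with an adjusted p, 2.92% in MPP4, with 10.8% and 13.5% at an unadjusted p under 0.05. The libraries did not overlap for Mycl in MPP3 (0 of 9 genes without it) and for Mnt in MPP4, against 4.58% and 7.27% of genes tested. For Mycl in MPP3, the log2 value of KO over WT was 3.11 ± 1.18 (adjusted p = 0.358), which again depends on the prior count and was 7.04 without MPP3 WT mouse 4. In MPP4 it was 1.69 ± 0.83 (1.07 with age as a term). For Mycn in MPP4 it was 0.33 ± 0.14 (adjusted p = 0.321), with 0.21 without MPP4 KO mouse 2 and 0.14 with age as a term, and in MPP3 it was -0.19 ± 0.14, with -0.11 without MPP3 WT mouse 2 and -0.39 with age as a term. Mxd3 had -0.27 ± 0.12 in MPP3 and 0.16 ± 0.12 in MPP4. Max had -0.16 ± 0.1 and -0.13 ± 0.1 in that order, Mxd4 -0.02 ± 0.14 and -0.03 ± 0.14, and Mxi1 0.2 ± 0.23 and -0.05 ± 0.23. Mxd1 had -0.06 ± 0.17 in MPP3 and -0.36 ± 0.17 in MPP4 (adjusted p = 0.392), the latter at -0.17 without MPP4 WT mouse 3. Kit, a marker of the sort, was lower in KO than in WT in MPP4 (408 ± 23.1 against 547 ± 36 CPM; log2 -0.42 ± 0.07; adjusted p = 0.056), and its part in these values was not tested. For Myc, the log2 fold change of KO over WT was 0.01 (95% interval -0.34 to 0.36) in MPP3 and -0.01 (-0.36 to 0.34) in MPP4. The comparisons share libraries with those between populations. For the difference between the genotype effects in MPP3 and MPP4, edgeR called 0 of the 10 and 0% of all genes tested (2 of the 10, Mycn and Mxd3, at an unadjusted p under 0.05, beside 2.28% of all genes). DESeq2 called 0 of the 10 and 0.0678% of all genes (2 of the 10 at an unadjusted p under 0.05, beside 2.24%). The other 8 genes had log2 differences of 0.02 (Myc), 1.43 (Mycl), -0.04 (Max), 0.3 (Mxd1), 0.01 (Mxd4), 0.24 (Mxi1), 0.12 (Mnt) and -0.02 (Mga).

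Per kilobase of exon, Myc made up 81 ± 1.58% of the summed level of the network in MPP3 WT, 82.1 ± 4.61% in MPP3 KO, 78.8 ± 1.78% in MPP4 WT and 78.1 ± 3.63% in MPP4 KO (SD, n = 4). The order of levels was led in all groups by Myc (385, 387, 379.8 and 377 CPM per kb in MPP3 WT, MPP3 KO, MPP4 WT and MPP4 KO), Max (38.6, 34.5, 44.5 and 40.8) and Mycn (22.8, 19.9, 24.7 and 31). Max and Mycn overlapped only in MPP4 KO. In MPP3, Mxd4, Mxd3 and Mga followed with overlapping ranges (5.25 to 6.67 CPM per kb on average). In MPP4, Mxd3 stood alone after Mycn (9.83 in WT and 11 in KO) above Mxd4 and Mga. Mxd1, Mnt and Mxi1 came next, at 1.91 to 4.8 CPM per kb, and Mycl was last in each group. The ratio of the summed Myc family to the summed Mxd family with Mnt was 18.1 ± 2.62 in MPP3 WT, 19.6 ± 4.13 in MPP3 KO, 15.4 ± 3.63 in MPP4 WT and 15.8 ± 1.97 in MPP4 KO. Single MPP3 libraries spanned 14.4 to 24.7 and single MPP4 libraries 11.5 to 19.8, so the populations overlapped. By mouse, the ratio was 20.4, 19.4, 14.4 and 18.1 in MPP3 WT against 16.6, 19.8, 11.5 and 13.5 in MPP4 WT. In KO it was 14.6, 19.3, 19.6 and 24.7 in MPP3 against 13.7, 14.8, 16.8 and 18.1 in MPP4. It was thus higher in MPP3 in every mouse but WT 2. The summed Mxd family with Mnt was lower in MPP3 in every mouse. These differences within mice were not tested. A ratio of transcript levels says nothing of protein levels, which turn over quickly for Myc.

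The pathway around the network was read from lists of other genes. Among 45 genes that Myc induces, mostly of ribosome assembly, nucleotide synthesis and metabolism, 3 were higher and 2 lower in MPP3 in WT, and 1 was higher and 4 lower in KO, with medians of 0.03 and -0.01 on the log2 scale. The 5 of 45 in each genotype are a smaller share than the 15.1% and 17.9% of all genes that passed in WT and KO, and each list below is to be read beside the same shares. Tcof1, which serves ribosomal RNA transcription, was lower in MPP3 in both genotypes (-0.48 ± 0.09, adjusted p = 0.000912 in WT; -0.49 ± 0.09, adjusted p = 0.000725 in KO). So was Ccnd2, a cyclin of the G1 phase (-0.37 ± 0.1, adjusted p = 0.0245 in WT; -0.56 ± 0.1, adjusted p = 0.000988 in KO). Eif4e, the cap-binding translation factor, was higher in MPP3 in both (0.17 ± 0.06, adjusted p = 0.071; 0.2 ± 0.06, adjusted p = 0.0232). Polr1b, an RNA polymerase I subunit, and Hk2, a hexokinase, were higher in MPP3 in WT (0.38 ± 0.08 and 0.52 ± 0.17). Cdk4, the kinase partner of D cyclins, was lower in MPP3 in KO (-0.23 ± 0.06, adjusted p = 0.0128). In the fit with the mouse as a block, 7 passed in WT (5 higher and 2 lower) and 11 in KO (4 higher and 7 lower), again smaller shares than the 24.8% and 28.3% of all genes.

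Between genotypes, none of the 45 passed in edgeR's test. At an unadjusted p under 0.05, 4 were counted in MPP3 and 7 in MPP4, beside 10.5% and 12.8% of all genes tested. DESeq2 called 1 in each population, beside 1.82% of all genes in MPP3 and 2.92% in MPP4. The fold change of KO over WT was positive for 31 of the 45 in MPP3 (median 0.05) and for 38 in MPP4 (median 0.08), beside a median of -0.01 over all genes in both. The genes of the list are co-expressed and no test of the list was made. Polr1b, with the smallest p of the list in MPP3, was lower in KO by value there (78.2 ± 5.03 against 96.1 ± 9.23 CPM in WT; log2 -0.3 ± 0.08; adjusted p = 0.2). Dctpp1, a nucleotide-cleaning enzyme, had 0.21 ± 0.07 (adjusted p = 0.209) and Ran, the nuclear transport GTPase, 0.19 ± 0.07 (adjusted p = 0.268) in MPP4. Cyc1, of the respiratory chain, had 0.06 ± 0.07 in MPP3 and 0.11 ± 0.07 in MPP4. Eif3b, a translation initiation factor, varied widely among replicates (341 ± 191 CPM in MPP3 WT and 475 ± 88.1 in MPP3 KO), with a log2 fold change of 0.48 ± 0.48 in MPP3 and 0.59 ± 0.49 in MPP4.

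Across the 8 mice, no relation of Myc to the summed level of its induced list was detected (means of both populations on the log2 scale; Pearson r = -0.25, exact permutation p = 0.547; Spearman rho = -0.31, exact permutation p = 0.462). Without the 2 mice farthest from the median Myc level, r was -0.485. For the list of repressed genes, r was -0.367 (exact permutation p = 0.377) and rho -0.405 (exact permutation p = 0.327), with r at -0.328 without those 2 mice. The adjusted p over both relations was 0.547, and each genotype has too few mice for a value of its own. Mouse KO 1, with the lowest Myc, had 15674 and 16619 summed CPM of induced genes in MPP3 and MPP4, and mouse KO 4, with the highest, had 15402 and 15262.

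**Figure D4:**
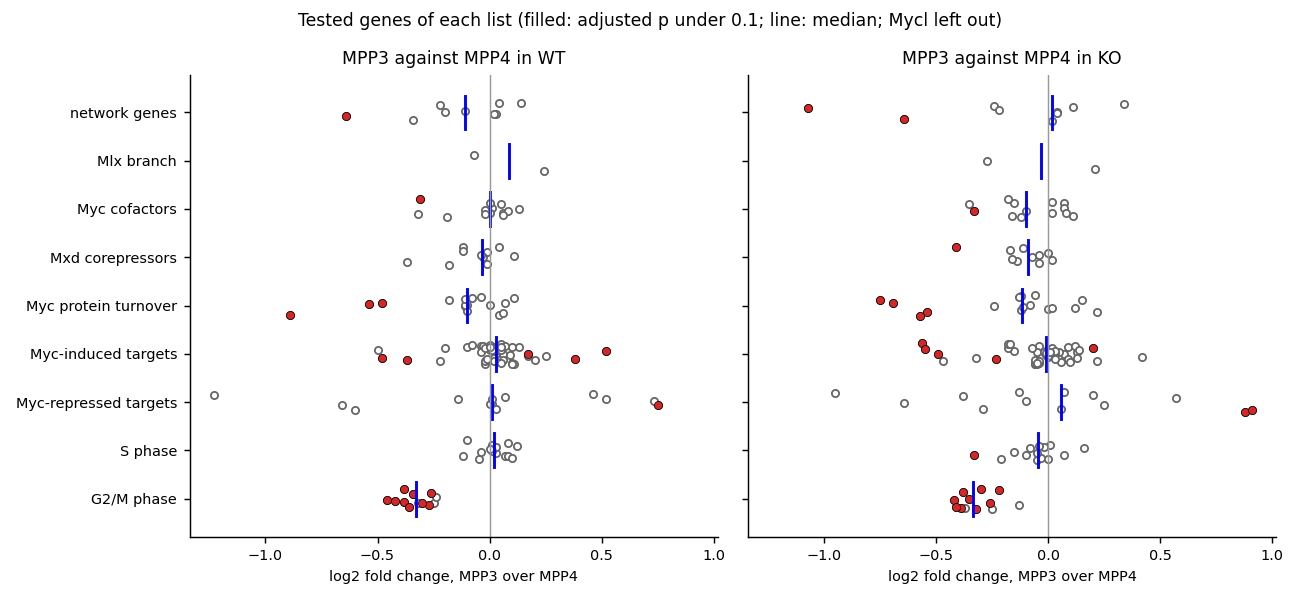
Log2 fold change of MPP3 over MPP4 (horizontal axis) for the tested genes of each list, in WT (left) and KO (right), with filled points for an adjusted p under 0.1 and a vertical line at each list's median, without Mycl. The G2/M genes lie below 0 in both panels (median -0.33), while the Myc-induced and S phase genes lie on both sides of 0.

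The cell cycle lists differed from each other by value. Of 12 G2/M genes, 9 were lower in MPP3 in WT and 9 in KO, and none was higher, with medians of -0.33 in both genotypes. Top2a, the topoisomerase of dividing cells, had -0.38 ± 0.07 in WT (adjusted p = 0.0014) and -0.41 ± 0.07 in KO (adjusted p = 0.000659), and Ccna2, cyclin A2, had -0.42 ± 0.09 in both (adjusted p = 0.00367 and 0.00332). Aurkb, the chromosomal passenger kinase, had -0.34 ± 0.08 in WT (adjusted p = 0.00642) and Ccnb1, cyclin B1, had -0.35 ± 0.08 in KO (adjusted p = 0.00769). Of 14 S phase genes, none passed in WT and 1 was lower in MPP3 in KO (Gins2, a helicase component, -0.33 ± 0.1, adjusted p = 0.0371). The medians were 0.02 and -0.04, and the summed S phase level spanned 4730.3 to 5532 CPM in MPP3 and 4818 to 5390 CPM in MPP4. The summed G2/M level spanned 1895 to 2201 CPM in MPP3 and 2326 to 2829 CPM in MPP4, in the same direction as Mxd3, and its part in the Mxd3 difference was not tested.

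Among 14 genes that Myc represses, of which 13 were tested, Ndrg1, a stress-response gene, was higher in MPP3 in WT (0.75 ± 0.16, adjusted p = 0.00404) and in KO (0.88 ± 0.16, adjusted p = 0.000951), and its relative Ndrg2 in KO (0.91 ± 0.3, adjusted p = 0.0558). A block for the mouse gave 6 passing genes in WT (3 higher and 3 lower) and 8 in KO (4 higher and 4 lower), beside 24.8% and 28.3% of all genes in that fit. Of 16 regulators of Myc protein turnover, 3 were lower in MPP3 in WT and 4 in KO, beside 15.1% and 17.9% of all genes called in either direction. They included the mitotic kinases Aurka (-0.48 ± 0.1 and -0.54 ± 0.1) and Plk1 (-0.54 ± 0.14 and -0.57 ± 0.14) and the ubiquitin ligase subunit Fbxo32 (-0.89 ± 0.23 and -0.75 ± 0.23, WT and KO). Of 13 cofactors, only Zbtb17, the Miz1 partner through which Myc represses, passed in the fit, lower in MPP3 in both genotypes (-0.31 ± 0.08, adjusted p = 0.0174; -0.33 ± 0.08, adjusted p = 0.00993). With the mouse as a block, 2 cofactors passed in WT and 3 in KO, all lower in MPP3, which are smaller shares than the 24.8% and 28.3% of all genes. Of 10 Sin3 and deacetylase corepressors, none passed in WT in the fit, and 2 passed with the mouse as a block (24.8% of all genes). Of the Mlx branch, which pairs Mlx with glucose-sensing partners, Mlx and Mlxip were tested and neither passed, although Mlxip was lower in MPP3 in KO with the block. Between genotypes, none of the genes of these lists or of the cell cycle lists passed in edgeR's test. Those of smallest p included Hcfc1, a Myc-binding chromatin factor (-0.3 ± 0.13 in MPP3; adjusted p = 0.43), Sin3a, the Mxd corepressor itself (-0.23 ± 0.09 in MPP3; adjusted p = 0.392), and Fbxw7, which marks Myc for degradation (0.37 ± 0.18 in MPP3; adjusted p = 0.485).

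The genes whose levels over the 16 libraries were most like those of Myc were Xab2, Prr14 and Tbcc, with a mean absolute difference of standardised log2 levels of 0.303, 0.336 and 0.367, against a median of 1.1 over genes tested. The nearest network gene was Mnt, at 0.95 (rank 2922). For Mycn, the most similar genes were Plekhj1, Acaca and Spindoc, at 0.403, 0.423 and 0.455 against a median of 1.11. The network gene nearest to Mycn was Mxd3, at 0.68 (rank 271). The nearest of many genes lie under the median by selection, and no test of these likenesses was made.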

How the data were processed

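The RNA-seq libraries (poly(A) RNA, NEBNext Single Cell/Low Input kit, paired reads of 100 bases) were aligned by the authors to mm10 with STAR 2.7.3a, and the deposited values used are raw read counts per Ensembl gene from featureCounts 2.0.0. The annotation release and strand setting are not given in the sources used here. A second deposited table of normalised counts was not used. Groups came from the sample titles. Counts were fitted with edgeR 4.0.16 in R 4.3.3 (TMM factors, quasi-likelihood F-test, 1 mean per group, 16 libraries in 1 fit) for the 11831 genes with a mean over 100 counts in any group, with Benjamini-Hochberg adjustment over these genes and a threshold of 0.1. SE was computed from the fold change and its F value. The libraries are separate mice within a group, and p-values cover their spread. CPM per kilobase used exon lengths of GENCODE M21 (GRCm38). DESeq2 1.42.0 was an alternative, as were other factors and filters, sex or age as a term, only the 8 libraries of a population, leaving out libraries, and a block. The fits were tested on simulated data. No network gene fell below the filter, so the exact test planned for such genes was not used. The relation of Myc to its targets across mice, the comparison of spread between and within mice and the counts of network genes without Mycl were chosen after seeing the data.

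Same-numbered MPP3 and MPP4 libraries of a genotype deviated together in all 8 pairs (r of deviations from group means 0.269 to 0.548). Each MPP3 library was most like the MPP4 library of its own number. Pairs of other numbers reached 0.29 (MPP3 WT 1 with MPP4 WT 2) and 0.303 (MPP3 WT 4 with MPP4 WT 3). Same-numbered libraries were therefore taken as 1 mouse, which these values alone do not establish. The mouse was used as a block in an alternative fit. Same-numbered WT and KO libraries did not deviate together (r from -0.464 to 0.127). No 2 libraries of a group agreed within sampling noise (chi-square per gene 31.2 to 114).

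The network genes, the lists of other genes and the tests were chosen with earlier results of these data known, and those results had set both WT 1 libraries apart, so these were also left out together. All 10 network genes are named in every comparison. From each list and comparison, the rule names the 3 called genes of smallest p in each direction, or the 2 of smallest p if none is called, and the text leaves out marker genes and most uncalled genes among these. Cyc1 and Eif3b are named because the study treats them as Myc targets, and the 3 genes most like Myc and Mycn by the mean absolute difference of standardised log2(CPM + 0.5). Mlxip, Prelid1 and Kit were named after their values were seen. Results of some genes on the wider lists, including the corepressor comparison in KO, are not reported here.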

Additional observations from a re-analysis of the deposited data

Results flagged for a closer look

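Dixon's ratio (the gap of the highest or lowest library to its nearest neighbour over the group's range) was above its critical value in 2 of 40 groups of 4 libraries (10 genes in 4 groups), and chance gives about 5% of groups. Mycl in MPP3 WT mouse 4 was at 0.177 CPM, with the other 3 libraries at 0. Mxd4 in MPP4 KO mouse 1 was at 44.9 CPM, with the other 3 libraries at 56.5 to 57.9 CPM. Mxd4 passed in no comparison with or without these libraries.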

How the results depend on the processing

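Mxd3 passed between the populations in both genotypes under all 23 alternatives, as did Mycn in KO. Counted without Mycl, 1 network gene passed between populations in WT in place of 2. With the mouse as a replicate block, 5 network genes passed between populations in KO in place of 3. Between genotypes in MPP4, 1 passed (Mnt) under DESeq2 in place of 0, beside 2.92% of all genes. With sex as a term, 1 passed as well (Mnt), and the share of all genes in that fit was not counted. For Mnt, the adjusted p between genotypes in MPP4 ran from 0.045 to 0.47 over 25 alternatives. Between populations, Mnt passed in WT without MPP3 WT mouse 1 (log2 -0.48, adjusted p = 0.0817) and Max passed in KO without MPP4 KO mouse 4 (-0.32, adjusted p = 0.0468). The causes were not tested. Per CPM without length, the ratio of the summed Myc family to the summed Mxd family and Mnt was 8.5, 8.84, 7.92 and 8.46 in MPP3 WT, MPP3 KO, MPP4 WT and MPP4 KO, since Myc has shorter exons than most of the others.

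The log2 fold changes that changed sign lay near 0 and had no call in that comparison. Between populations in WT, Myc was at 0 without both WT 1 libraries. In KO, Mxi1 was at 0 with the mouse as a replicate block. Between genotypes in MPP3, Myc was at -0.01 with sex as a term and at -0.02 with the number as a replicate block, Mxd1 at 0.1 and Mga at 0 with age as a term. In MPP4, Myc was at 0.09 and Mga at 0.01 with age as a term, and Myc at 0.01 without both WT 1 libraries.

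Leaving out 1 library at a time, the log2 fold change between populations in WT ran from -0.05 to 0.1 for Myc, from -0.19 to 0.01 for Mycn, from -0.03 to 0.23 for Mxd1, from -0.09 to 0.12 for Mxd4, from -0.44 to -0.09 for Mxi1 and from 0.03 to 0.23 for Mga. In KO it ran from -0.08 to 0.19 for Myc, from -0.04 to 0.09 for Mxd4, from -0.11 to 0.12 for Mxi1, from -0.31 to -0.13 for Mnt and from -0.01 to 0.21 for Mga. Between genotypes in MPP3 it ran from -0.11 to 0.16 for Myc, from -0.14 to 0 for Mxd1, from -0.08 to 0.09 for Mxd4, from 0.06 to 0.42 for Mxi1 and from -0.22 to -0.06 for Mga. In MPP4 it ran from -0.11 to 0.1 for Myc, from -0.2 to -0.05 for Max, from 0.09 to 0.24 for Mxd3, from -0.11 to 0.05 for Mxd4, from -0.19 to 0.08 for Mxi1 and from -0.21 to 0.02 for Mga. The difference between genotype effects ran from -0.1 to 0.17 for Myc, from -0.11 to 0.04 for Max, from 0.11 to 0.42 for Mxd1, from -0.08 to 0.13 for Mxd4, from 0.11 to 0.46 for Mxi1, from 0.01 to 0.26 for Mnt and from -0.15 to 0.08 for Mga. For Mycl, that difference ran from 0.61 to 5.35 over all alternatives.

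Over the same alternatives, 7 to 11 of the 12 G2/M genes passed between populations in each genotype. Of the 45 induced genes, 3 to 7 passed in WT and 4 to 11 in KO, and of the repressed genes 1 to 6 in WT and 1 to 8 in KO. With 4 libraries a group, Mycl at 0 counts in 3 MPP3 WT libraries could not be told from a level of up to 0.118 CPM, and counting error alone is covered by that limit.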
